A study of Rattus norvegicus with 9 samples.

Results

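The genes described here are the transcription factors that carry the rhythm of the circadian clock to other genes in pancreatic islets of rats. They were chosen by name for their role, with earlier results of these data known: Dbp, Tef, Hlf, Nfil3, Bhlhe40, Bhlhe41, Ciart and Rora. Of these 8 genes 7 were measured, out of 14217 measured genes in all. For Ciart no single-gene probe set is listed in the platform annotation, so it was not analysed here. The samples are islets of 5 obese Wistar rats on a high-caloric cafeteria diet and of 4 lean Wistar rats on standard chow, and the title of the series gives 30 days as the time on the cafeteria diet. Islets were freed with collagenase straight after killing, and each sample was hybridised to 1 Affymetrix rat expression array. The labels name no genotype, transgene, age, sex, hour of killing, feeding state or batch, and pooling of animals is neither stated nor denied. The replicate numbers used below are not in the labels and follow the order of the deposited samples in each group. The p-values below measure the spread between these 9 samples.

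The circadian clock is a feedback loop in which the pair CLOCK and BMAL1 switches on genes through a DNA motif called the E-box, and the products of the Per and Cry genes switch this pair off. Dbp, Tef and Hlf encode the PAR bZIP activators, which bind a second motif, the D-box, and pass the rhythm to metabolic genes. Nfil3 encodes a repressor of the same D-box, Bhlhe40 and Bhlhe41 encode repressors that bind E-boxes, Ciart encodes a repressor that acts on BMAL1, and Rora encodes a nuclear receptor that activates Bmal1 and Nfil3 through the ROR element, where Nr1d1 and Nr1d2 repress. In beta cells of mice the clock is known to be needed for normal insulin secretion.

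Promoters of 4 members are printed to show which of them hold the E-box near the start. Each is the stretch of 250 bases before the transcript start in RefSeq (build GRCr8), read 5′ to 3′ along the gene's strand, with the letters of an E-box in capitals. Dbp lies at chr1:105312006-105312255 (plus strand), Tef at chr7:115206577-115206826 (plus strand), Bhlhe40 at chr4:143174200-143174449 (plus strand) and Bhlhe41 at chr4:180569356-180569605 (minus strand).
Dbp: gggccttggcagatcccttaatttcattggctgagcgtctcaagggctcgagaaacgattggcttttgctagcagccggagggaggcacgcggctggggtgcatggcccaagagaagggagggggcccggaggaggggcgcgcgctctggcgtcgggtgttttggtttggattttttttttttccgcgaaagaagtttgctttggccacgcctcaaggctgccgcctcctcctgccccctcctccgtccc
Tef: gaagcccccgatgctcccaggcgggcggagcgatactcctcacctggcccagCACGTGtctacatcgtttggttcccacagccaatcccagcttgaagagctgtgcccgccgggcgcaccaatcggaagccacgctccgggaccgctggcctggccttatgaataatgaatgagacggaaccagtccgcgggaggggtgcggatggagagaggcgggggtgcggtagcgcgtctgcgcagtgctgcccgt
Bhlhe40: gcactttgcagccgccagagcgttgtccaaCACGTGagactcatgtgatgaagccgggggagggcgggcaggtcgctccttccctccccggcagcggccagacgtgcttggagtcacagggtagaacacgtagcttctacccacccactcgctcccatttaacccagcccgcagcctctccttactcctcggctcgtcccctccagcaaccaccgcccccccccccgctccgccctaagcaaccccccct
Bhlhe41: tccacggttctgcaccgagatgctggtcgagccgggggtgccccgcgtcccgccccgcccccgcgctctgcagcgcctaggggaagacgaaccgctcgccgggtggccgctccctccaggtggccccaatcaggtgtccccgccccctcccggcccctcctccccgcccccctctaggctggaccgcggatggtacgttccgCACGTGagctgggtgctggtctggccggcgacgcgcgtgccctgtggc
The E-box (CACGTG, the same on both strands) stood 198 to 193 bases before the transcript start used for Tef. It stood 220 to 215 bases before that used for Bhlhe40 and 48 to 43 bases before that used for Bhlhe41. RefSeq gave a window for 7 of the 8 members (Hlf was not matched), and 4 of the 7 held an E-box, with 3 copies in Ciart. The windows of Tef, Ciart and Rora lay wholly inside the annotated gene, and that of Bhlhe41 partly. For these genes the transcript start used is therefore not the outer end of the gene. The windows of Dbp, Nfil3 and Rora did not hold these letters, and sequence outside the windows was not searched. Among 33469 windows of this length 5.59% held an E-box. The D-box letters TTANGTAA (N is any base; TTACNTAA on the other strand) were found in 2.04% of all windows and the core AGGTCA of the ROR element (TGACCT on the other strand) in 14.1%, and 0 of the 7 member windows held either.

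The label of the tissue was borne out by its hormone genes, which were among the brightest on the arrays. Over all 9 arrays Ins1 and Ins2 (insulin) were at or above 13.39 and 14.13 on the log2 scale, Gcg (glucagon) at or above 13.44 and Sst (somatostatin) at or above 12.32. The deposited log2 values ran from 2.44 to 14.24, and array medians lay between 5.28 and 5.32. Correlations between arrays over all tested probe sets were 0.979 to 0.994.

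The diets were compared over all 31042 probe sets, and no member passed. By limma 0 probe sets reached an adjusted p under 0.05, which is 0.00% of those tested, and the smallest adjusted p was 0.844, with 1789 probe sets at an unadjusted p under 0.05. Of the 7 members 5 were lower and 2 higher in cafeteria islets, with a median difference of -0.14 log2 (cafeteria minus lean, as all differences here). Over all genes the median was 0.0025, and 50.8% were higher. At an unadjusted p under 0.05 stood 1 of the 7 members, Dbp, beside 6.70% of all genes (3.28% as lower and 3.42% as higher genes). In 0 of the 7 members were the groups fully separate, beside 2.17% of all genes. With 7 genes such counts are too small to be set apart from these shares.

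Dbp, a PAR bZIP gene, had the largest difference of the members. It had log2 values of 5.86, 5.77, 5.13, 5.43 and 5.40 in cafeteria replicates 1 to 5, against 6.54, 6.17, 5.60 and 6.49 in lean replicates 1 to 4. Lean replicates 1, 2 and 4 were above every cafeteria array, but lean replicate 3 lay below cafeteria replicates 1 and 2, so the groups overlapped. The means were 5.52 ± 0.30 in cafeteria and 6.20 ± 0.43 in lean islets (SD, n = 5 and 4), a difference of -0.68 (SE 0.21, 95% interval -1.14 to -0.23). On the linear scale cafeteria islets had 0.623 times the lean level, with an interval from 0.454 to 0.855. By limma the unadjusted p was 0.00732 and the adjusted p 0.844, and exact permutation of the samples gave a two-sided p of 0.0397. Dbp stood at place 120 of 14217 genes by unadjusted p, and 50 genes had a more negative difference. Its difference was -0.57 to -0.88 when any single sample was left out, with the largest size without lean replicate 3. A lower value in a whole islet sample can come from fewer cells of a type or from less RNA per cell, which cannot be told apart here. Dbp is known to vary with the hour of the day, and the hour of killing is not given in the sources used here.

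Tef, which encodes the thyrotroph embryonic factor, was also lower in most cafeteria samples by its brightest probe set. Its log2 values were 7.15, 6.68, 6.55, 6.67 and 6.69 in cafeteria replicates 1 to 5, against 7.01, 7.17, 7.002 and 6.83 in lean replicates 1 to 4. Cafeteria replicates 2 to 5 lay below every lean array, and cafeteria replicate 1 lay near the top of the lean range. The difference was -0.26 (SE 0.12, 95% interval -0.52 to 0.01; limma unadjusted p = 0.0595). Without cafeteria replicate 1 it was -0.36 (limma unadjusted p = 0.0023, adjusted p = 0.435). The groups then no longer overlapped, which follows from leaving out the only cafeteria sample that was not below every lean one. Without that sample 10.8% of all genes had an unadjusted p under 0.05 and 5.80% did not overlap. Over the 9 omissions of 1 sample the unadjusted limma p for Tef was 0.0023 to 0.161, under 0.05 in 2. The 2 dimmer probe sets of Tef, with means between 3.52 and 4.34, differed by -0.0061 and 0.12, so the lower level was seen in 1 of 3 probe sets. With the mean of the 3 probe sets in place of the brightest, the difference was -0.0465.

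Hlf, which encodes the hepatic leukemia factor, differed the other way. Its brightest probe set had log2 values of 6.52, 6.10, 6.38, 6.07 and 6.39 in cafeteria replicates 1 to 5, against 6.04, 6.08, 5.96 and 6.27 in lean replicates 1 to 4. Cafeteria replicates 1, 3 and 5 lay above every lean array, and cafeteria replicates 2 and 4 lay inside the lean range. The difference was 0.20 (SE 0.11, 95% interval -0.04 to 0.45; limma unadjusted p = 0.0909). All 4 Hlf probe sets had a positive difference, 0.20, 0.22, 0.19 and 0.0492 from the brightest to the dimmest, and none passed the test. The differences of the 3 PAR bZIP genes therefore had 2 signs, and whether they differ from each other was not tested.

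**Figure D1:**
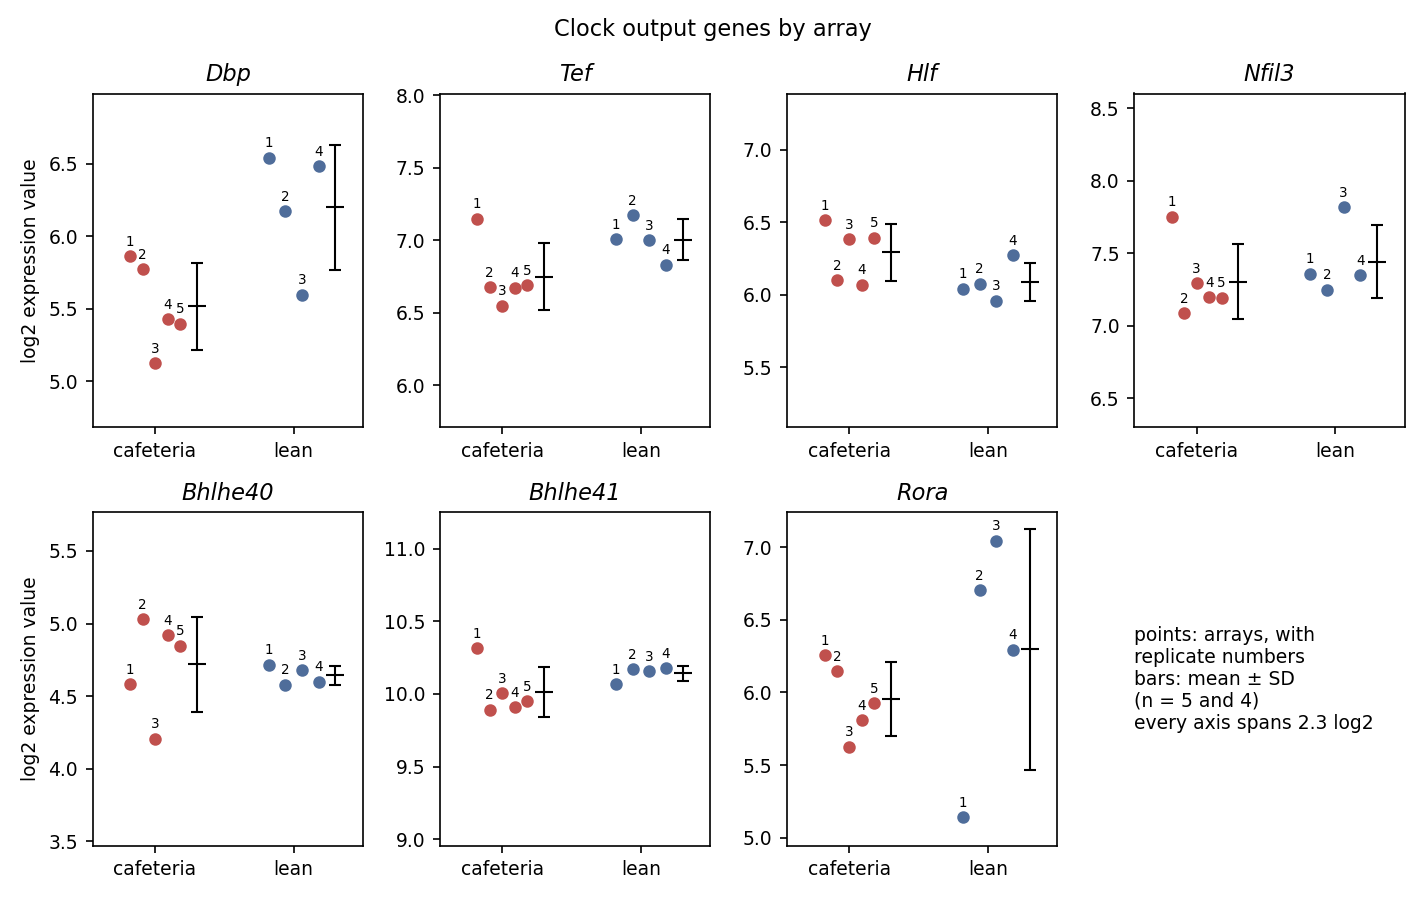
Log2 expression values of the 7 measured genes, with 1 point per array, cafeteria samples (red) to the left of lean samples (blue), replicate numbers above the points, and bars for the mean ± SD (n = 5 and 4); every vertical axis spans the same number of log2 units. Dbp shows the largest gap between the group means, 5.52 in cafeteria and 6.20 in lean samples, and Rora shows the widest lean spread, from 5.14 to 7.05.

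The repressor of the D-box, Nfil3, had log2 values of 7.75, 7.08, 7.29, 7.20 and 7.19 in cafeteria replicates 1 to 5, against 7.36, 7.25, 7.82 and 7.35 in lean replicates 1 to 4. One array of each group, cafeteria replicate 1 and lean replicate 3, stood above the others, which all lay between 7.08 and 7.36. The difference was -0.14 (SE 0.15, 95% interval -0.47 to 0.20; limma unadjusted p = 0.381), and it was -0.0136 when lean replicate 3 was left out and -0.25 when cafeteria replicate 1 was.

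Of the E-box repressors, Bhlhe41 (DEC2) was bright and Bhlhe40 (DEC1) dim. Bhlhe41 had log2 values of 10.32, 9.89, 10.01, 9.91 and 9.95 in cafeteria replicates 1 to 5, against 10.07, 10.17, 10.16 and 10.18 in lean replicates 1 to 4. As in Tef, cafeteria replicates 2 to 5 lay below every lean array. Cafeteria replicate 1 lay above every lean array in Bhlhe41. The difference was -0.13 (SE 0.09, 95% interval -0.33 to 0.08, limma unadjusted p = 0.199). Without cafeteria replicate 1 it was -0.20 (limma unadjusted p = 0.0148, adjusted p = 0.49), and the overlap ended, as it must without that sample. Without it 10.8% of all genes had an unadjusted p under 0.05. Over the 9 omissions of 1 sample the unadjusted limma p for Bhlhe41 was 0.0148 to 0.349, under 0.05 in 1. Bhlhe40 had log2 values of 4.58, 5.03, 4.21, 4.92 and 4.85 in cafeteria replicates 1 to 5, against 4.71, 4.58, 4.68 and 4.60 in lean replicates 1 to 4, all below the array medians. Its cafeteria values lay on both sides of the lean ones, with an SD of 0.33 in cafeteria and 0.0646 in lean islets. The difference was 0.0749 (SE 0.15, 95% interval -0.25 to 0.40; limma unadjusted p = 0.625), and its sign turned to -0.0032 without cafeteria replicate 2.

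Rora varied more between samples of 1 group than any other member. Its brightest probe set had log2 values of 6.26, 6.15, 5.63, 5.81 and 5.93 in cafeteria replicates 1 to 5, against 5.14, 6.71, 7.05 and 6.29 in lean replicates 1 to 4. The cafeteria arrays all lay inside the lean range, below lean replicates 2, 3 and 4 and above lean replicate 1. The difference was -0.34 (SE 0.32, 95% interval -1.05 to 0.36; limma unadjusted p = 0.306). It was -0.73 without lean replicate 1 (limma unadjusted p = 0.00278, adjusted p = 0.56), where 10.4% of all genes had an unadjusted p under 0.05. It was -0.21 without lean replicate 2 (limma unadjusted p = 0.566) and -0.0947 without lean replicate 3 (limma unadjusted p = 0.762). Of the 9 omissions of 1 sample, 1 gave Rora an unadjusted p under 0.05. The dimmer probe set of Rora differed by 0.0501 (SE 0.13).

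**Figure D2:**
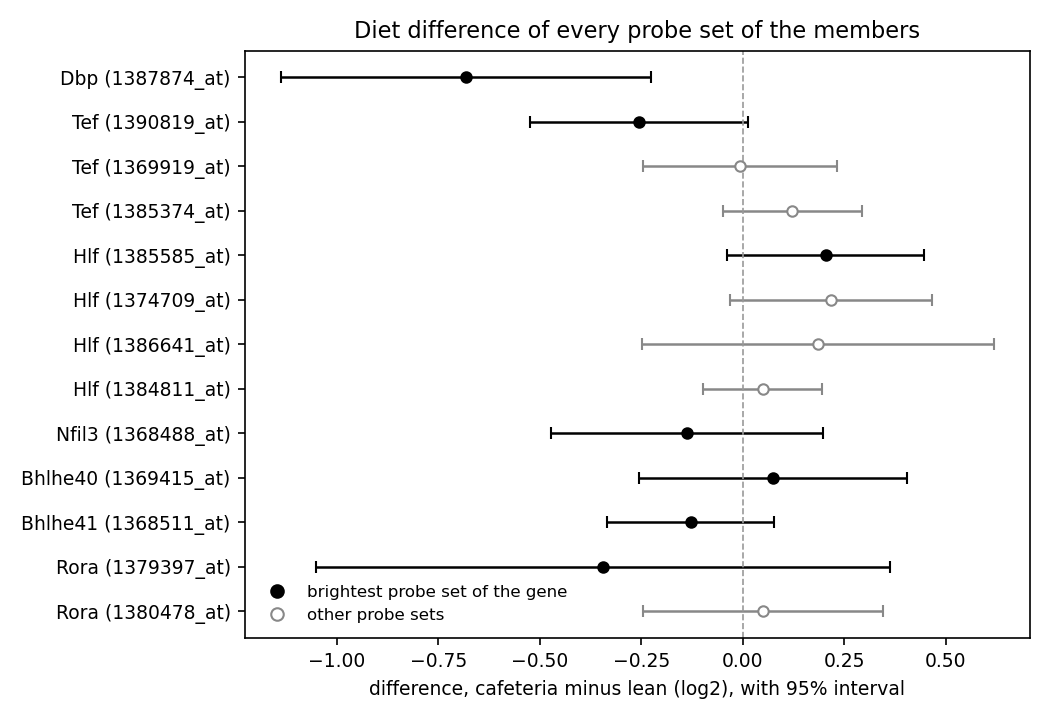
Difference, cafeteria minus lean on the log2 scale (horizontal axis), with its 95% interval from limma, for each of the 13 probe sets of the 7 genes; filled points are the brightest probe set of a gene and open points the others. The interval of Dbp, from -1.14 to -0.23, is the only 1 of the 13 that does not include 0.

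The spread between samples of the same group set how much these arrays could show. The pooled SD within groups was 0.363 for Dbp and 0.576 for Rora, larger than in 95.2% and 99.0% of all genes. Nfil3 (0.258), Bhlhe40 (0.253), Tef (0.197) and Hlf (0.173) also lay above the median over all genes, 0.148, and Bhlhe41 (0.136) below it. Cafeteria replicate 1 held the highest cafeteria value in 6 of the 7 members, all but Bhlhe40, and cafeteria replicate 3 the lowest in 4, Dbp, Tef, Bhlhe40 and Rora.

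How far the members varied together was asked for all 21 pairs over the 9 arrays. The Pearson correlations ran from -0.49 to 0.81, with 13 above and 8 below 0, and after Benjamini-Hochberg adjustment over the 21 pairs 0 passed (2 had an unadjusted exact permutation p under 0.05). Tef and Bhlhe41 had the highest, r = 0.81 (exact permutation p = 0.0115, adjusted 0.121; Spearman rho = 0.73, exact permutation p = 0.0311, adjusted 0.227), and r was 0.69 without the 2 arrays farthest from the median of Tef. Nfil3 and Bhlhe41 followed with r = 0.77 (exact permutation p = 0.0109, adjusted 0.121; rho = 0.75, exact permutation p = 0.0255, adjusted 0.227), and r was 0.74 without the 2 arrays farthest from the median of Nfil3. After each group's mean was subtracted, these pairs had r of 0.75 and 0.75. Cafeteria replicate 1 held the highest cafeteria value of Tef, Nfil3 and Bhlhe41 (7.15, 7.75 and 10.32). The correlation within the diets was not computed without this array, so it may rest on it. Dbp and Tef had r = 0.61 (exact permutation p = 0.0884, adjusted 0.536; rho = 0.72, exact permutation p = 0.0369, adjusted 0.227), 0.83 without the 2 arrays farthest from the median of Dbp and 0.32 after the group means were subtracted. The lowest r was -0.49, between Bhlhe40 and Bhlhe41 (exact permutation p = 0.186, adjusted 0.589, with rho = -0.70, exact permutation p = 0.0433, adjusted 0.227). It was -0.47 after the group means were subtracted. Without the 2 arrays farthest from the median of Bhlhe40, a dim gene, r was -0.94, a value that was not tested.

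The loop that drives the members differed in both directions. Of 16 measured genes of a core clock list 6 had an unadjusted p under 0.05, 4 lower and 2 higher, beside the 6.70% of all genes, and none passed over all probe sets by limma (adjusted p = 0.844 for each of the 6). The list is known to hold genes that differ in these data, and its median was -0.0336. Nr1d1, the repressor that acts on the ROR element, had log2 values of 5.88, 6.17, 4.59, 4.93 and 5.78 in cafeteria replicates 1 to 5, against 7.28, 6.67, 6.32 and 7.04 in lean replicates 1 to 4. Its groups did not overlap, as in 2.17% of all genes. The lowest cafeteria values of Nr1d1 were in replicates 3 and 4, and the lowest lean value was in replicate 3. Cry1, the clock repressor, had log2 values of 6.99, 6.59, 7.67, 7.31 and 7.31 in cafeteria replicates 1 to 5, against 6.21, 6.42, 6.40 and 6.27 in lean replicates 1 to 4, also without overlap. The differences were -1.36 for Nr1d1 (SE 0.32) and 0.85 for Cry1 (SE 0.18). The other 4 were Nr1d2 (-0.67, SE 0.18), Npas2 (-0.34, SE 0.10), whose product can stand in for CLOCK, Per2 (0.52, SE 0.16) and Btrc (-0.35, SE 0.12), which encodes a ubiquitin ligase subunit that marks PER proteins for breakdown.

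**Figure D3:**
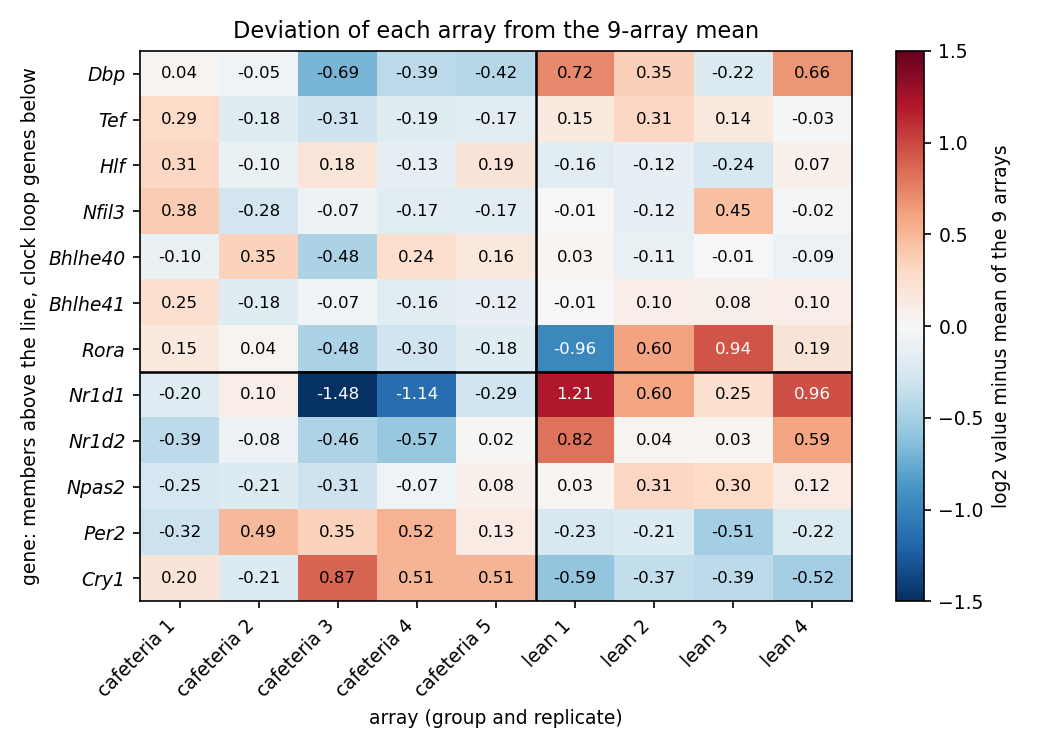
Log2 value minus the mean of the 9 arrays (colour and printed number) for the 7 clock output genes above the line and 5 clock loop genes below it, with the 5 cafeteria arrays to the left of the 4 lean arrays. Dbp runs from -0.69 in cafeteria replicate 3 to 0.72 in lean replicate 1, the same 2 arrays that hold the lowest and highest values of Nr1d1, -1.48 and 1.21.

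Which genes had array patterns most like Dbp was asked of 13976 genes that are no members and carry no locus number as their symbol. The 5 with the highest Pearson correlation over the 9 arrays were Vps8 (r = 0.97), Cchcr1 (0.94), Elmod1 (0.93), Dcc (0.93) and Esm1 (0.92). These are descriptions without a test, since the 5 were picked from many genes for their correlation and the arrays share the diet difference. After each group's mean was subtracted their r was 0.92, 0.93, 0.85, 0.89 and 0.85. Their own diet differences were -0.17, -0.13, -0.43, -0.14 and -0.34, and none passed the test by limma (adjusted p of 0.844 to 0.846). Nr1d1 stood at place 7 of the order, with r = 0.92 over the 9 arrays and 0.81 after the group means were subtracted.

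Genes that often follow the clock in other tissues had small differences. Of 15 measured genes of such a list 0 had an unadjusted p under 0.05 by limma, beside 6.70% of all genes. Of these 15 genes 10 were higher and 5 lower, and the median was 0.0314. The 4 with the smallest p were Pim3 (-0.23, SE 0.12), a kinase gene, Herpud1 (0.21, SE 0.12), which responds to stress of the endoplasmic reticulum, Coq10b (0.14, SE 0.0842) and Gys2 (0.16, SE 0.11), the liver form of glycogen synthase. The full range was -0.23 to 0.21.

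The relatives of the members by protein family were compared in the same fit. Of 10 measured genes of the C/EBP and CREB/ATF families, which are bZIP factors like Dbp and Nfil3, 8 were lower and 2 higher. Their median was -0.11, and 2 had an unadjusted p under 0.05, beside 6.70% of all genes. Crem, which encodes a cAMP-responsive modulator and repressor, had log2 values of 6.76, 6.97, 7.04, 7.50 and 6.96 in cafeteria replicates 1 to 5, against 6.30, 6.58, 6.62 and 6.62 in lean replicates 1 to 4. The Crem groups did not overlap, as in 2.17% of all genes. All 6 Crem probe sets had a positive difference (0.52 for the brightest, SE 0.14, limma unadjusted p = 0.00344, adjusted p = 0.844). Cebpb (-0.37, SE 0.14), Atf5 (-0.54, SE 0.25) and Atf4 (-0.27, SE 0.15), which respond to inflammation or stress, were the next by p.

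Of 9 measured genes for Hes and Hey repressors, which share the bHLH-Orange fold with Bhlhe40 and Bhlhe41, 7 were lower and 2 higher. Their median was -0.0510, and 2 had an unadjusted p under 0.05, beside 6.70% of all genes. These 2 were Hes6 (-0.19, SE 0.0738) and Hes1 (-0.34, SE 0.14), a target of Notch signalling. Hes6 and Hes1 had an adjusted p of 0.844 by limma. Helt (0.0660, SE 0.0782) and Hes3 (-0.0485, SE 0.0702) were next by p.

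**Figure D4:**
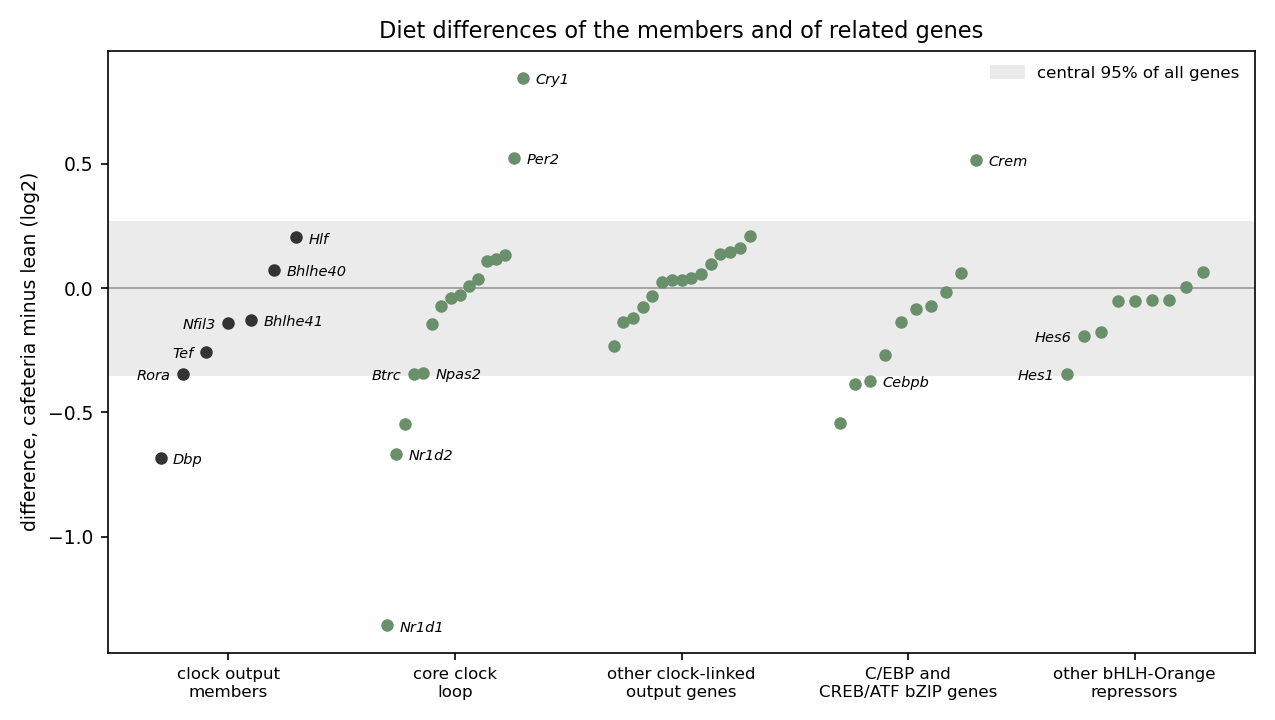
Difference, cafeteria minus lean on the log2 scale (vertical axis), of each measured gene of the members and of 4 related lists, ordered by value within a list; the grey band holds the central 95% of all genes, -0.35 to 0.27, and names mark the members and other genes at an unadjusted p under 0.05. Dbp is the only member below the band, and Nr1d1 and Cry1 are the farthest points of all lists.

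Means of marker lists for other cells and for early stress were compared beside the members, and none of these comparisons passed after adjustment. Immune markers were lower in 15 of 15 measured genes, and their mean deviation from the 9-array mean was -0.35 to -0.0640 in cafeteria and -0.0719 to 1.12 in lean samples (exact permutation p = 0.0159, adjusted over 9 such comparisons 0.143). Immediate early and heat shock genes were lower in 14 of 14, with -0.54 to 0.50 in cafeteria and -0.37 to 1.40 in lean samples (exact permutation p = 0.198, adjusted 0.40). Acinar markers were higher in 15 of 16, with -1.03 to 0.73 in cafeteria and -0.76 to 0.17 in lean samples (exact permutation p = 0.222, adjusted 0.40). As a covariate in the fit the immune mean, added after these values were seen, left a Dbp difference of -1.12 (limma unadjusted p = 2.80e-04, adjusted p = 0.9999). With it Nfil3 differed by 0.0794, Rora by 0.0902, Hlf by 0.0991 and Bhlhe40 by 0.14, against -0.14, -0.34, 0.20 and 0.0749 without it. Tef and Bhlhe41 moved little, with -0.26 and -0.15 against -0.26 and -0.13 without the immune mean. With the immediate early mean as a covariate Dbp differed by -0.56, Rora by -0.65, Nfil3 by -0.22, Hlf by 0.12 and Bhlhe40 by 0.19. Tef differed by -0.26 and Bhlhe41 by -0.19 with it. Rora thus moved the other way than with the immune mean. The highest immune mean, 1.12, was in lean replicate 3 (other lean samples 0.14 or lower). The highest immediate early mean, 1.40, was in lean replicate 1 (other lean samples 0.16 or lower). These arrays held the highest and the lowest Rora value, 7.05 and 5.14. Among the lean samples they also held the lowest and the highest Dbp value, 5.60 and 6.54. Whether a shift with these covariates follows the markers or a single array cannot be told apart here. With the acinar mean Dbp differed by -0.74, Rora by -0.21 and Bhlhe40 by 0.15. Tef differed by -0.30, Hlf by 0.23, Nfil3 by -0.16 and Bhlhe41 by -0.15 with the acinar mean. With none of these covariates did a member pass by limma after adjustment. The 3-prime minus 5-prime difference of the actin and Gapdh controls, a sign of RNA quality, averaged 1.51 ± 0.24 in cafeteria and 1.56 ± 0.16 in lean samples (SD, n = 5 and 4), and with it as a covariate Dbp differed by -0.70.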

How the data were processed

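The authors deposited 1 table of log2 expression values per probe set for 9 arrays. RMA, affy 2.0.1 and R 2.7.0 are listed, with no order of steps, per the submitters' processing notes. RMA makes the distributions of arrays equal, so a shift shared by most genes is removed, and dim probe sets show smaller differences than were present. Depth has no meaning for arrays; their number limits the precision (median SE of a difference 0.0981 log2). After 57 control probe sets were left out, 31042 were tested. The platform annotation gave 20826 of them 1 gene and 436 several genes, and 9780 were unnamed here. Of the single-gene sets 20758 were matched to RefSeq by gene identifier. The probe set with the highest mean stood for a gene.

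The diets were compared with limma 3.58.1 (R 4.3.3), lmFit and plain eBayes, with diet as the only term. The two-sided p-values were adjusted by Benjamini-Hochberg over all probe sets, with a threshold of 0.05. The fit was tested on simulated data. Single values and marker means were compared by exact permutation (smallest possible p 0.00794), and correlations by exact permutation of 362880 pairings (Python 3.11.15, numpy 2.4.6; plots with matplotlib 3.10.9).

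The members and lists were chosen with earlier results of these data known, so no p over a list is given. Besides the members, the text names the 6 core clock genes and the 4 genes of each other list with the smallest unadjusted p, and the 5 genes most like Dbp. Older list symbols were matched through RefSeq synonyms. Marker lists covered islet endocrine, acinar, ductal, immune, endothelial, stellate and adipocyte cells and immediate early and heat shock genes. Alternatives were other scalings, a filter on dim probe sets, other variance models, array weights, covariates, other probe set rules, a threshold of 0.10 and leaving out each sample.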

Additional observations from a re-analysis of the deposited data

Results flagged for a closer look

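Within the cafeteria group, replicate 1 stood apart from the other samples in 2 genes. For Tef (brightest probe set) it had 7.15, and the next highest cafeteria sample had 6.69. For Bhlhe41 it had 10.32, and the next highest cafeteria sample had 10.01. In each case the gap exceeded Dixon's 95% critical value for 5 samples. Among the 26 sets of values examined this way (13 probe sets in both groups), about 1 in 20 would be marked by chance.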

How the results depend on the processing

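Across 9 single-sample omissions and 11 other settings Dbp was lower in all 20, between -1.12 and -0.56, and its unadjusted limma p stayed under 0.05 in all 20 (smallest adjusted p 0.346). Tef (lower), Hlf (higher) and Bhlhe41 (lower) also kept their signs in 20 of 20. Not all of these settings could move a difference. The filter on dim probe sets and the variance model with an intensity trend left these differences at their main values. So did the other probe set rules for Dbp and Bhlhe41, which have 1 probe set each. The sign turned for Bhlhe40 without cafeteria replicate 2 (-0.00323, against 0.20 without cafeteria replicate 3) and for Nfil3 (0.0794) and Rora (0.0902) with the immune covariate, which was added after the data were seen. The cause was not tested. Bhlhe40 was removed by the filter on dim probe sets. The number of members at an unadjusted p under 0.05, 1 in the main comparison, was 2 with the RNA quality covariate, 2 with array weights and 1 to 3 with single samples left out. The share of all genes at that p was 13.5% with the RNA quality covariate and 9.84% with array weights, against 6.70% in the main comparison. It was 6.10% without lean replicate 4 and 10.8% without cafeteria replicate 1, the omissions that gave 3 members. Members without overlap, 0 in the main comparison, numbered 0 to 2 with single samples left out, where 2.71% to 6.89% of all genes had none, against 2.17% in the main comparison (5.80% without cafeteria replicate 1, which gave 2 members). They were not counted with covariates, other variance models or array weights, which leave the values unchanged. The number of probe sets at an adjusted p under 0.05 was 0 in every setting tried, with 851 (immune covariate) to 3413 (RNA quality covariate) at an unadjusted p under 0.05. At an adjusted p under 0.10 it was 0 in the main comparison and 1 without lean replicate 2. Median centring moved the median of all probe sets by under 0.1 log2. No paired analysis was possible because the labels number no replicates. The other marker means (islet endocrine, ductal, endothelial, stellate and adipocyte) differed by -0.0939, -0.22, -0.11, -0.10 and -0.0124, with exact permutation p of 0.159, 0.341, 0.175, 0.627 and 0.786.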
